A study of Homo sapiens with 4 samples.

Results

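The genes examined here encode the proteasome, its activators and its assembly factors, and they were taken by symbol: every autosomal protein-coding gene whose symbol begins with PSM, a letter from A to G and a number. The rule gave 49 genes among 19126 autosomal protein-coding genes. Of these, 19 were core genes (PSMA, PSMB), 20 regulatory genes (PSMC, PSMD) and 10 activator, inhibitor or assembly genes (PSME, PSMF, PSMG). BAF45D belongs to the BAF complex, which remodels chromatin. It was mapped with a rabbit antibody by CUT&Tag, in which the antibody brings a transposase to the DNA beside its target, in 100000 cells per assay. The NSC libraries (NSC1, NSC2) came from spinal cord neural stem cells. These had been derived from H9 embryonic stem cells in N2B27 medium with LDN-193189, SB431542, CHIR-99021, FGF2, FGF8 and DAPT for 10 days, then grown with SB-431542, CHIR-99021 and Hh-Ag 1.5, and last with FGF2 and EGF; Y-27632 was added at passages. The ESC libraries (ESC1, ESC2) came from H9 cells kept on Matrigel in mTeSRTM1 medium. All 4 libraries thus derive from 1 cell line, and the labels do not say whether libraries of a cell type were separate cultures, so their spread may be technical.

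The proteasome is the protease that degrades proteins tagged with ubiquitin. Its core particle is a barrel of rings, with PSMA (alpha) subunits at the ends and PSMB (beta) subunits, some of them proteolytic, in the middle. The regulatory particle caps the barrel: its PSMC subunits are ATPases that unfold the substrate, and its PSMD subunits include scaffolds, ubiquitin receptors and a deubiquitinase. PSME proteins are alternative activators, PSMF1 is an inhibitor, and PSMG proteins are chaperones that assemble the core. Proteasome genes are expressed in nearly every cell, except for a few variant subunits such as PSMB8, PSMB9 and PSMB10 of the immunoproteasome, PSMB11 of the thymus and PSMA8 of the testis. By symbol, 2 genes entered that are named for a partner of their protein: PSMC3IP, a meiotic recombination factor, and PSME3IP1, named for its partner PSME3.

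The lists held 28887 and 23942 autosomal peaks in NSC1 and NSC2, against 4054 and 12159 in ESC1 and ESC2, from 5566407 and 5377831 tags in the NSC libraries and 20734829 and 18953543 in the ESC libraries. Each peak has a deposited −log10 q, computed against the background of its own library, and its percentile in its own list is given below, with 100 for the strongest. Strengths of different lists share no scale. Of 8 marker genes of neural stem cells, 7 had a peak at a gene end in both NSC libraries and 1 (SOX2) in both ESC libraries; PAX6 had none. Of 6 pluripotency markers, 2 had one in each NSC library, against 3 in ESC1 and 4 in ESC2; POU5F1 and NANOG had none. Peaks show occupancy and not expression, so they do not test the cell type labels.

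The sequences around the starts of 7 members show what lay under the summits described below. They are RefSeq promoters on GRCh38.p14, each running from 250 bases before the start to 50 after it, 5′ to 3′ on the strand of the gene. Capitals mark matches, on either strand, to 7 short motifs: TGACNNNGC for the antioxidant element read by NFE2L1 and NFE2L2, GCATGCG for NRF1, CCGGAAG for ETS factors, CCAAT for the CCAAT box, GGGCGG for SP1, AAGATGG for YY1 and TATAAA for the TATA box. Matches of different motifs did not overlap in these 8 sequences. PSMD3 (chr17:39980557-39980856, plus strand) and PSMA3 (chr14:58244593-58244892, plus strand) had peaks in all 4 libraries. The summits inside the window of PSMA2 (chr7:42932125-42932424, minus strand) lay within 4 bp of each other in 3 libraries. PSMD11 (chr17:32444260-32444559, plus strand) has the highest mean NSC percentile of those called in both NSC libraries and no ESC library. PSMB5 has an outer start (chr14:23035171-23035470, minus strand) and an inner one (chr14:23034851-23035150) and the libraries differed in which of them their summits lay near. PSMB4 (chr1:151399323-151399622, plus strand) and PSMC2 (chr7:103347393-103347692, plus strand) had no peak at their ends in any library.
PSMD3: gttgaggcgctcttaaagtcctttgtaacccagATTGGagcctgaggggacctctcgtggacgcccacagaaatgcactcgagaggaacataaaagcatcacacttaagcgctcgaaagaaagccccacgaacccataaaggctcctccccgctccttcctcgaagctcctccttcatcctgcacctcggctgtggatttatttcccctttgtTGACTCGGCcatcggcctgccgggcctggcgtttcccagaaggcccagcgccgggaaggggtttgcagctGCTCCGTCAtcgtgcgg
PSMA3: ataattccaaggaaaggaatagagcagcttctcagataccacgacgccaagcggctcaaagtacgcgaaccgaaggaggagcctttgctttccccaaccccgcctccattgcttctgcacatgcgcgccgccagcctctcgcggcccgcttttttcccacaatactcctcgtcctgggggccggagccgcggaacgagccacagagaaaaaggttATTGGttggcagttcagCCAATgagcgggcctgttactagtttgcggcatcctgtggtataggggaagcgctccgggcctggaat
PSMA2: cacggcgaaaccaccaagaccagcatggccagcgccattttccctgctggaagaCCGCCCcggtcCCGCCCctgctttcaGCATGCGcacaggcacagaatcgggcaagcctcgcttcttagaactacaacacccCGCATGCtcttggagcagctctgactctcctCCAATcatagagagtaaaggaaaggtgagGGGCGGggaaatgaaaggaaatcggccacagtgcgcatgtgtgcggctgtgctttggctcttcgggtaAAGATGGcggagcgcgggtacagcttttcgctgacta
PSMD11: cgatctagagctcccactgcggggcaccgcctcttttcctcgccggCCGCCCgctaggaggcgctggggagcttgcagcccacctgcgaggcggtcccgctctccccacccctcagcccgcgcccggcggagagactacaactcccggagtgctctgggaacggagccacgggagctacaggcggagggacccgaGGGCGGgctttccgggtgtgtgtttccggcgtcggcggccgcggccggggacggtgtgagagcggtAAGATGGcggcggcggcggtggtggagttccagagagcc
PSMB5, outer start: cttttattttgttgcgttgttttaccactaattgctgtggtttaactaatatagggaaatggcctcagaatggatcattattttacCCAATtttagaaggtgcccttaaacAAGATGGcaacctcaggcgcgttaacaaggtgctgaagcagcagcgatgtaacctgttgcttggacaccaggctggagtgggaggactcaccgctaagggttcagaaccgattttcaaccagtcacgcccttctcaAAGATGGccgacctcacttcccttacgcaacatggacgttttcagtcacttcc
PSMB5, inner start: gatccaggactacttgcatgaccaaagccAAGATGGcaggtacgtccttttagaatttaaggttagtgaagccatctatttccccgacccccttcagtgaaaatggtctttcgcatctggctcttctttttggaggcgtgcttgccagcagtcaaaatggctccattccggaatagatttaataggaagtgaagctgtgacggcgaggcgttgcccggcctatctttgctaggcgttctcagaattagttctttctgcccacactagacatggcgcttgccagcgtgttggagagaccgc
PSMB4: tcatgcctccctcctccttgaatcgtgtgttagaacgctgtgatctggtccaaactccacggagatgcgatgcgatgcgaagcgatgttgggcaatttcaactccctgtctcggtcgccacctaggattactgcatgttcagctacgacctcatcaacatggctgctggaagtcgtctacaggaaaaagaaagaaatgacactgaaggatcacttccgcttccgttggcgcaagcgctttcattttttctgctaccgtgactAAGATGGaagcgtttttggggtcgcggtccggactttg
PSMC2: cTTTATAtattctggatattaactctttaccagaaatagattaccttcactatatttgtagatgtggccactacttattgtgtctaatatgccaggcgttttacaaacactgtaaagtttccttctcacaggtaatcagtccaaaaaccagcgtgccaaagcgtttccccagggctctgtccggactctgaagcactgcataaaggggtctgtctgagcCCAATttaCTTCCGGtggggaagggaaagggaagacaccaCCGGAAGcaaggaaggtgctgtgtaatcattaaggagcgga

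Counting bases from 1 at the 5′ end of each window, the summits in the PSMA2 window fell at bases 138 in NSC1, 141 in NSC2 and 137 in ESC2. All of them lay in the reverse match to GCATGCG at bases 136 to 142. In the PSMD3 window, summits fell at bases 27 in NSC1, 33 in NSC2 and 38 in ESC1, before or in the reverse CCAAT box at bases 34 to 38. The PSMA3 window held summits at bases 156 in NSC1, 233 in NSC2, 257 in ESC1 and 216 in ESC2, the last being a secondary summit of its peak. Its 2 CCAAT boxes, a reverse match at bases 216 to 220 and a forward one at 233 to 237, begin at the ESC2 and NSC2 summits. The PSMD11 summits, at bases 216 in NSC1 and 206 in NSC2, lay just after a GGGCGG match at 196 to 201. A summit is the highest point of a smoothed pileup and not the place of contact, and a match is only a match of letters.

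Proteasome gene ends carried BAF45D peaks in more of the members in NSC than in ESC libraries, and in each full list in a larger share of members than of all coding genes. A gene was called when a peak lay within 1 kb of either end. In NSC1, 39 of 49 members were called (79.6%, 95% Wilson interval 66.4 to 88.5), against 43.5% of all autosomal coding genes. NSC2 had 31 members (63.3%, 49.3 to 75.3), against 38.7%. ESC1 had 8 members (16.3%, 8.51 to 29.0), against 6.8%, and ESC2 had 21 (42.9%, 30 to 56.7), against 23.2%. The share of members was 1.83 and 1.64 times that of all genes in NSC1 and NSC2, and 2.40 and 1.85 times in ESC1 and ESC2. At −log10 q of at least 5, ESC1 had 1 member (2.04%), below the 3.36% of all genes. The member shares were then 51.0% and 40.8% in NSC1 and NSC2 and 28.6% in ESC2, against 30.8%, 26.2% and 15.4% of all genes. Intervals cover counting error only, since genes are not replicates.

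NSC libraries averaged 35 ± 5.66 called members, against 14.5 ± 9.19 for ESC libraries (SD, n = 2 each), a difference of 20.5 genes. Both NSC counts lay above both ESC counts. The strongest gene-end peaks of the called members had median percentiles of 62.1 and 61.1 in NSC1 and NSC2, against 33.2 and 69.4 in ESC1 and ESC2. For all called genes the medians were 68.7 and 66.3, against 64.0 and 71.4. A two-sided exact permutation test gave p = 0.333, the smallest it can give with 2 libraries against 2, so it could not pass 0.05. The difference turned round when each list was reduced to its 4054 strongest peaks, the length of the ESC1 list: 7 and 5 members were then called in NSC1 and NSC2, against 8 and 13 in ESC1 and ESC2, a difference of -4.5 genes. The shares of all genes at that length were 11.4% and 10.9% in the NSC libraries, against 6.8% and 13.2% in the ESC libraries. Those of the members were 14.3% and 10.2% in the NSC libraries, against 16.3% and 26.5% in the ESC libraries, so the NSC2 share was then below that of all genes.

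**Figure D1:**
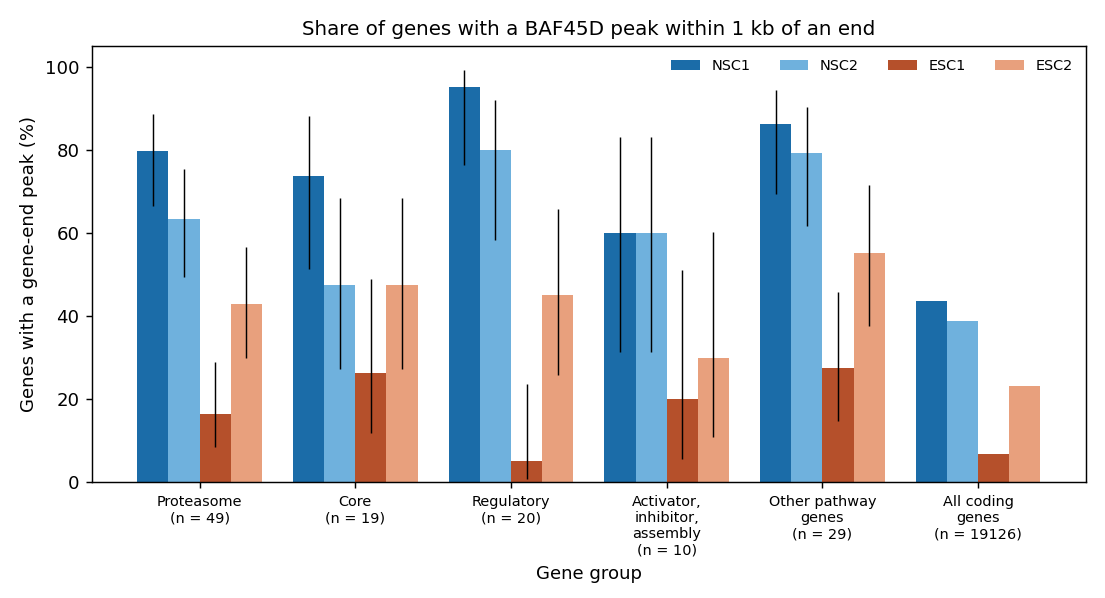
Percent of genes with a BAF45D peak within 1 kb of an end, by gene group (horizontal axis) and library (colours), with 95% Wilson intervals as error bars except for all coding genes. The regulatory group reached 95% in NSC1 and 80.0% in NSC2, against 5.0% in ESC1 and 45% in ESC2, and all coding genes 43.5%, 38.7%, 6.8% and 23.2%.

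Across libraries, 11 members were called in each NSC library but in neither ESC library (22.4%, against 16.4% of all genes), 12 in each NSC library and ESC2 but not ESC1 (24.5%, against 12.7%), and 7 in all 4 libraries (14.3%, against 6.01%). NSC1 alone had 7 (14.3%, against 6.73%). No member was called in both ESC libraries and neither NSC library, a pattern that 0.251% of all genes had, and nothing is read from that count. Members without any gene-end peak numbered 9 (18.4%, against 50.5%). Of the 30 members called in both NSC libraries, 19 also had an ESC peak (63.3%, against 53.4% of the 6723 genes called in both NSC libraries). The share called only in NSC is thus near that of all genes, and the number of 11 depended on ESC2, without which it was 23, and on NSC2, without which it was 18. The number in all 4 libraries depended on ESC1, without which 19 were called in the remaining 3. With each list reduced to the length of the ESC1 list, 0 members were called in each NSC library alone, 2 (PSMA5 and PSMB3) in both ESC libraries alone and 2 (PSMB1 and PSME2) in all 4, so these counts moved with list length. At PSMA5 the ESC1 call was then a peak at the start and the ESC2 call a peak beyond the 3′ end, so no site was shared. At PSMB3 the ESC1 call was a peak with its summit 833 bp before the start. A gene without a listed peak may hold signal below the threshold. The number of tags also differed between the cell types as given above, and its part in these counts was not tested.

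**Figure D2:**
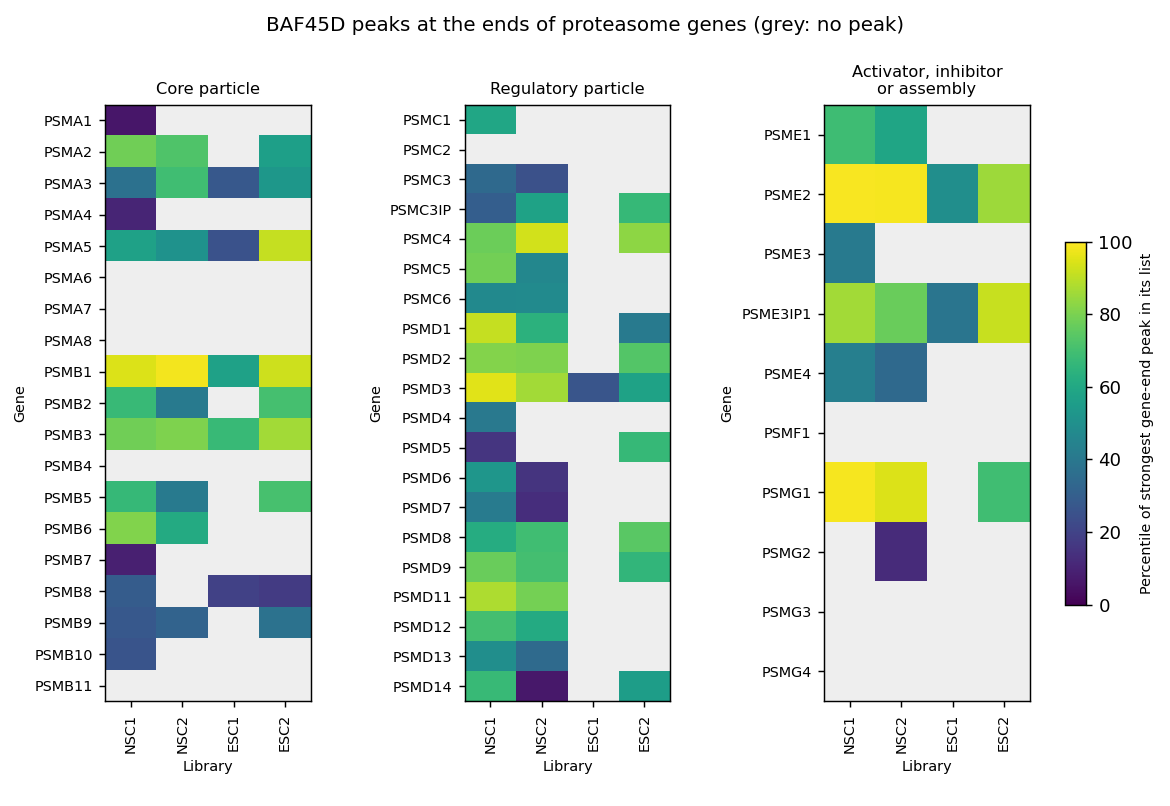
Strongest gene-end peak of each of the 49 members (rows, by role) in each library (columns), coloured by its percentile within the peak list of that library, with grey for no peak. Among the regulatory genes, PSMC2 alone is grey in all 4 libraries, and PSMD3 alone has a peak in ESC1.

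The counts by role below are to be read against the shares of all coding genes, 43.5% and 38.7% in NSC1 and NSC2, against 6.8% and 23.2% in ESC1 and ESC2. Core genes were called at 14 and 9 of 19 members in NSC1 and NSC2 (73.7% and 47.4%), against 5 and 9 in ESC1 and ESC2 (26.3% and 47.4%). Among them, the 14 constitutive subunits had 11 and 8 in NSC1 and NSC2, against 4 and 7 in ESC1 and ESC2, and the 5 variant subunits had 3 and 1, against 1 and 2. By ring, 5 and 3 of 8 PSMA genes were called in NSC1 and NSC2, against 2 and 3 in ESC1 and ESC2, and 9 and 6 of 11 PSMB genes, against 3 and 6. NSC2 and ESC2 thus had the same count of core genes in the full lists, while NSC1 had more. At equal list length the core counts were 1 and 1 in NSC1 and NSC2, against 5 and 5 in ESC1 and ESC2. Whether the role groups differ from each other was not tested.

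Of the proteolytic subunits, PSMB6 (chr17:4796164-4798495) was called only in NSC, with −log10 q of 11.2 and 6.43 in NSC1 and NSC2 and summits 18 and 25 bp outside the gene end. PSMB7, the trypsin-like subunit, was called in NSC1 alone, at 2.28. PSMB5 (chr14:23025851-23035220), the chymotrypsin-like subunit and target of proteasome inhibitor drugs, had peaks near its start in NSC1, NSC2 and ESC2, but not in the same place. The NSC1 summit lay at the inner start itself and the NSC2 summit 37 bp from it, with −log10 q of 7.54 and 3.78, whereas the ESC2 summit lay 49 bp before the outer start (6.79). The ESC2 peak overlapped neither NSC peak, and its summit was 369 and 332 bp from theirs. In the windows above, the ESC2 summit is base 202 of the outer one and the NSC1 and NSC2 summits are bases 251 and 214 of the inner one. Both NSC libraries also had a peak at the 3′ end of PSMB5 (4.50 and 4.46), where neither ESC library did.

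Among the ring subunits, PSMA3 (chr14:58244843-58272004) had −log10 q of 4.26 and 7.67 in NSC1 and NSC2, against 2.60 and 4.51 in ESC1 and ESC2. PSMA5 (chr1:109399042-109426448) had 6.14 and 4.47 at its start in NSC1 and NSC2, against 2.47 and 4.87 in ESC1 and ESC2. A second peak beyond its 3′ end was found in NSC1, NSC2 and ESC2 (5.01, 5.31 and 16.2). The summits of that peak lay 128 to 238 bp from the nearer gene end of SORT1, a sorting receptor gene. For neighbouring genes the distance is to the nearer gene end, whether that is the 5′ or the 3′ end. PSMA2 (chr7:42916861-42932174) shared its start with MRPL32, a mitochondrial ribosomal protein gene on the other side of the same peak, at 10.2 and 8.25 in NSC1 and NSC2 and 4.78 in ESC2. The summits of that peak in these libraries were within 4 bp of each other. They lay 110 to 114 bp before the start of PSMA2 and 88 to 92 bp from the nearer gene end of MRPL32. NSC2 had a second, separate peak (6.23), with its summit 763 bp before the start and 561 bp from that end of MRPL32. PSMB2 (chr1:35599541-35641526) had 7.61 and 4.47 in NSC1 and NSC2 and 6.69 in ESC2, with summits 113, 114 and 108 bp before the start in NSC1, NSC2 and ESC2. PSMA4 had a weak peak in NSC1 alone (2.39), and PSMA7 had none, its nearest peaks lying 14294 and 14313 bp away in NSC1 and NSC2, against 48257 and 48519 bp in ESC1 and ESC2.

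At PSMB1, PSMB3 and PSME2, 3 of the 7 members called in all 4 libraries, the summits lay nearer to another gene. PSMB1 (chr6:170535120-170553307) had a peak at its own end in NSC1 and NSC2 alone (5.91 and 3.76, summits 8 and 38 bp outside the gene). The stronger peak in its window, at 22.1 and 30.7 in NSC1 and NSC2, against 4.33 and 17.2 in ESC1 and ESC2, had its summit 938 to 966 bp from PSMB1 and 96 to 124 bp from TBP, which encodes the TATA-binding protein. Upstream of PSMB3 (chr17:38752741-38764225), the peak found in all 4 libraries had its summit 824 to 851 bp from the start and 36 to 63 bp from the asparagine tRNA gene TRN-GTT2-5. PSMB3 had a second peak, 79 and 107 bp before its start in NSC1 and NSC2 (10.3 and 10.5) and 182 bp before it in ESC2 (9.37), which ESC1 lacked.

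**Figure D3:**
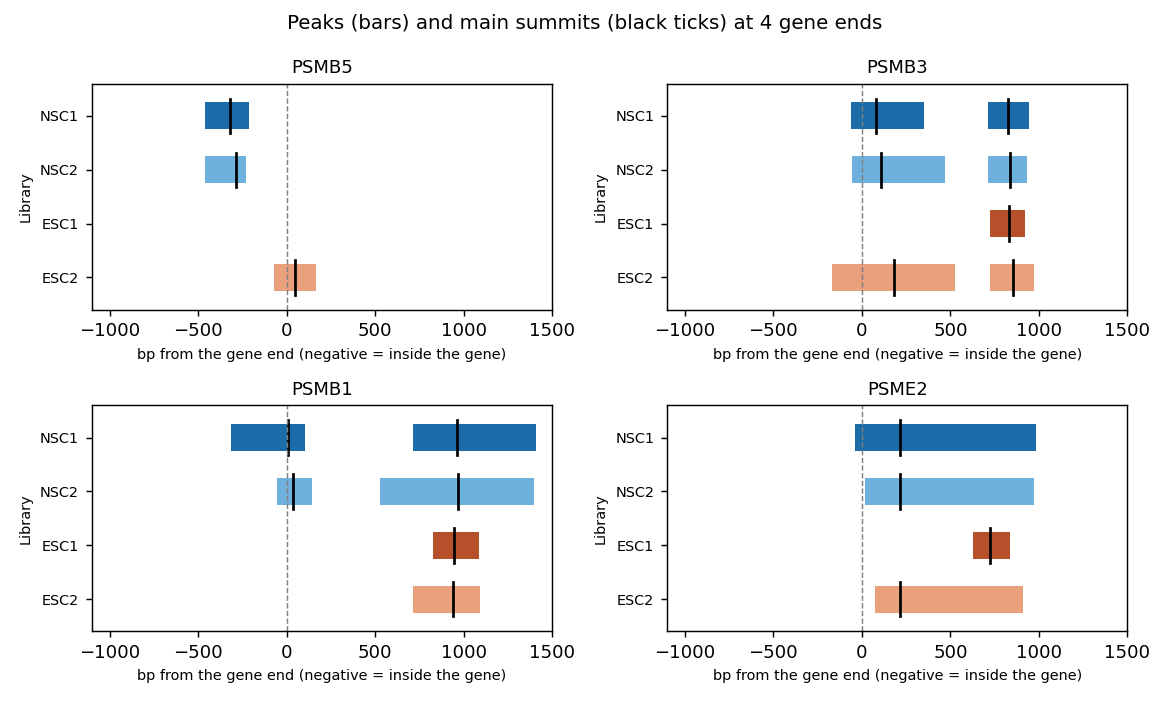
Peaks (bars) and their main summits (black ticks) by library (rows) along one end of PSMB5, PSMB3, PSMB1 and PSME2, in bp from the gene end, with negative values inside the gene. At PSMB5 the ESC2 bar does not overlap the NSC bars. The ESC1 bar at PSMB3 and both ESC bars at PSMB1 cover only the outer site.

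The variant core subunits lie partly in the major histocompatibility complex, where PSMB8 and PSMB9 flank TAP1, the peptide transporter gene. PSMB8 (chr6:32840717-32844679) was called in NSC1, ESC1 and ESC2 at low strength (3.75, 2.31 and 2.26), and is the only core gene called in both ESC libraries but not in both NSC libraries. Its summit lay 72 bp outside the gene end in NSC1 and 263 and 117 bp inside it in ESC1 and ESC2. PSMB9 (chr6:32854192-32859851) had 3.65 and 3.84 in NSC1 and NSC2 and 3.38 in ESC2. Its NSC2 and ESC2 summits were 113 and 124 bp before the start. The NSC1 peak lay apart, 380 bp before the start and 108 bp from the nearer gene end of TAP1. PSMB10 was called in NSC1 alone, by a peak whose summit was 989 bp inside the gene. The nearest NSC2 peak lay 1004 bp from a gene end, just outside the window. PSMB11 and PSMA8 had no gene-end peak in any library.

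Regulatory genes were called at 19 and 16 of 20 members in NSC1 and NSC2 (95% and 80.0%, where all genes had 43.5% and 38.7%), against 1 and 9 in ESC1 and ESC2 (5.0% and 45%, where all genes had 6.8% and 23.2%). The ESC1 share was near that of all genes. At equal list length the counts were 3 and 2 in NSC1 and NSC2, against 1 and 5 in ESC1 and ESC2. All 13 PSMD genes had a peak in NSC1 and 11 in NSC2, against 1 in ESC1 and 7 in ESC2. The PSMC ATPases were called at 5 and 4 of 6 in NSC1 and NSC2, against 0 in ESC1 and 1, PSMC4, in ESC2. Of the 11 members called in both NSC libraries and neither ESC library, 8 are regulatory: PSMC3, PSMC5, PSMC6, PSMD6, PSMD7, PSMD11, PSMD12 and PSMD13. The regulatory group makes up 20 of the 49 members, all genes called in this way make up 16.4%, and no member was left in this class at equal list length. Without PSMC3IP, the regulatory counts were 18 and 15 of 19 in NSC and 1 and 8 in ESC.

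The regulatory gene with the highest mean percentile in the NSC lists was PSMD3 (chr17:39980807-39997959), a lid subunit and the only one of this group with a peak in all 4 libraries. It stood at −log10 q of 23.7 and 12.9 in NSC1 and NSC2, the 95.5 and 86.2 percentiles of their lists, and at 2.52 and 4.91 in ESC1 and ESC2, the 26.5 and 57.8 percentiles. Its summits lay within 57 bp of each other, 213 to 270 bp before the start. PSMC4 (chr19:39971165-39981764), an ATPase, had 9.98 and 18.6 in NSC1 and NSC2 and 10.3 in ESC2, and stood above PSMD3 in the NSC2 and ESC2 lists, with summits 126, 100 and 148 bp before the start. PSMD11 (chr17:32444510-32483319), a lid subunit, had 14.5 and 10.0 in NSC1 and NSC2 and no ESC peak within 60713 bp of its ends. PSMD1 and PSMD2, the large scaffold subunits, were both called in NSC1, NSC2 and ESC2. PSMD1 had 17.2 and 6.84 in NSC1 and NSC2 and 3.65 in ESC2. PSMD2 (chr3:184299241-184309050) had 11.3 and 10.5 in NSC1 and NSC2 and 7.32 in ESC2, and its NSC2 and ESC2 summits were 1 bp apart.

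The other 7 regulatory genes called in both NSC libraries alone had −log10 q from 4.08 to 10.3 in NSC1 and from 2.54 to 6.43 in NSC2. Among them, the ATPase PSMC5 had 4.90 in NSC2, and the NSC1 peak that overlapped it had 6.30. The strongest NSC1 peak of PSMC5 (10.3), 344 bp before the start, did not overlap the NSC2 peak. The lid subunit PSMD12 had 8.10 and 6.43. The NSC1 and NSC2 peaks of PSMD7, another lid subunit, did not overlap (4.62 and 2.54). The ATPase PSMC6 had its nearest ESC2 peak 1236 bp beyond its 3′ end, 22626 bp from the start, where its NSC peaks lay. PSMD8, also of the lid, had 6.79 and 7.71 in NSC1 and NSC2 and 7.57 in ESC2. PSMC3IP had 3.81 and 5.98 in NSC1 and NSC2, and the ESC2 peak that overlapped these had 2.40. A separate ESC2 peak, 694 bp before the start of PSMC3IP, had 6.15 and overlapped neither NSC peak.

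Lower in the lists, PSMD14, the deubiquitinase of the lid, was called in NSC1, NSC2 and ESC2, at 7.61, 1.99 and 4.73. PSMD4, a ubiquitin receptor, was called in NSC1 alone (4.52), as was the ATPase PSMC1 (6.41). The assembly chaperones differed: PSMD9 had a peak in NSC1, NSC2 and ESC2 (9.91, 7.83 and 5.99), and PSMD5 one in NSC1 and ESC2 (2.85 and 6.15). PSMC2 (chr7:103347524-103369395) was the only regulatory gene without a peak at its ends, and its nearest peaks lay 2581 and 2650 bp away in NSC1 and NSC2, against 11760 and 12076 bp in ESC1 and ESC2.

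Activator, inhibitor and assembly genes were called at 6 of 10 members in each NSC library (60%), against 2 and 3 in ESC1 and ESC2 (20.0% and 30%). At equal list length the counts were 3 and 2 in NSC1 and NSC2, against 2 and 3 in ESC1 and ESC2. The 4 PSME genes had peaks at 4 and 3 in NSC1 and NSC2, against 1 in each ESC library. PSME2 (chr14:24143365-24146610), the beta subunit of the interferon-inducible activator, had the highest mean percentile of all members in the NSC lists, with −log10 q of 39.0 and 34.3 in NSC1 and NSC2, against 3.76 and 11.7 in ESC1 and ESC2. Its summits in NSC1, NSC2 and ESC2 lay 213 to 217 bp before the start. They were 48 to 52 bp from the nearer gene end of RNF31, a ubiquitin ligase gene, whereas the ESC1 summit was 724 bp from PSME2. Its partner PSME1, the alpha subunit, was called only in NSC (7.94 and 6.11), as was PSME4, a nuclear activator (4.75 and 3.98), which shares its peak with ACYP2.

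Of the assembly chaperones, PSMG1 (chr21:39174769-39183514) ranked next, at 37.4 and 20.6 in NSC1 and NSC2 and 6.56 in ESC2, the 98.8, 94.8 and 69.4 percentiles, with no ESC1 peak within 961285 bp of the gene. PSMG2 had a weak peak in NSC2 alone (2.48), 642 bp outside the gene, and the nearest NSC1 peak lay 1227 bp away. The activator PSME3 was called in NSC1 alone (4.6). PSMG3, PSMG4 and the inhibitor PSMF1 had none. PSME3IP1 was called in all 4 libraries (13.6 and 9.39 in NSC1 and NSC2, 3.11 and 16.5 in ESC1 and ESC2), at a start shared with RSPRY1.

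Of the 40 members with a gene-end peak in some library, 14 (35%) had one that was also within 1 kb of either end of another protein-coding gene. This was close to the 33.2% of all 9467 genes with a peak. Besides those named above, the neighbours were SIRT3, a mitochondrial deacetylase, at PSMD13, FTSJ3 at PSMC5, HPD at PSMD9, PDE3B at PSMA1, BRWD1 at PSMG1 and RETREG3 at PSMC3IP. Such a peak cannot be assigned to either gene from the lists.

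RefSeq starts were given for 43 of the 49 members; PSMA7, PSMB1, PSMB6, PSMB7, PSMD4 and PSMG3 had no entry. At these 43 genes, 38 of 40 gene-end peaks in NSC1 lay at the 5′ side and 2 at the 3′ side, and in NSC2 31 of 34. In ESC1 7 of 7 did, and in ESC2 22 of 23. Over all coding genes with a listed start, 92.7% and 93.3% of such peaks lay at the 5′ side in NSC1 and NSC2, against 93.4% and 91.5% in ESC1 and ESC2. Within 1 kb of a start, summits lay a median of 74.0 and 66.5 bp upstream in NSC1 and NSC2 (41 and 34 peaks), and 127 and 119 bp upstream in ESC1 and ESC2 (7 and 24 peaks). For all coding genes these medians were 67.0 and 75 bp in NSC1 and NSC2, and 148 and 122 bp in ESC1 and ESC2. Summits within 250 bp of a start made up 82.9% and 82.4% of the member peaks in NSC1 and NSC2, against 68.2% and 69.4% for all genes, and 57.1% and 70.8% in ESC1 and ESC2, against 63.4% and 65.5%.

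**Figure D4:**
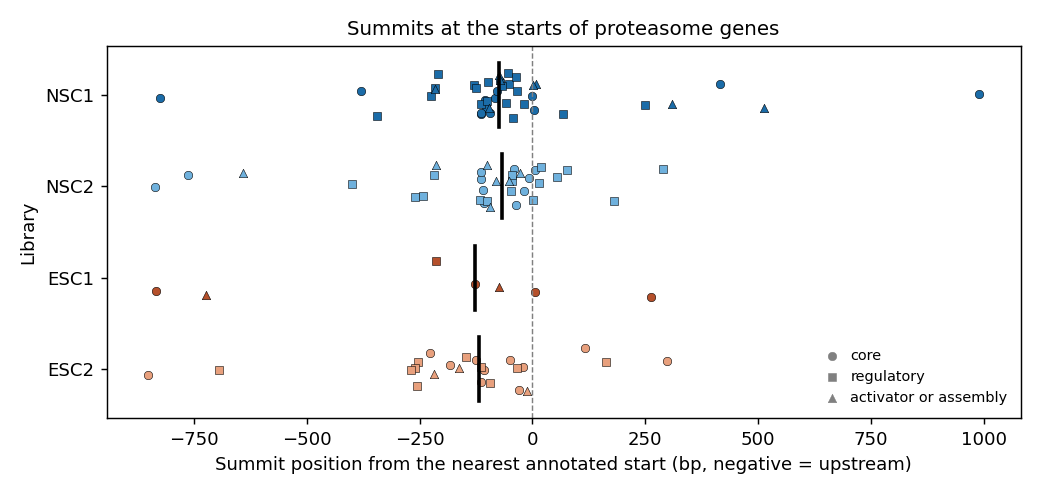
Summit position in bp from the nearest annotated start (horizontal axis, negative upstream) for peaks within 1 kb of the starts of 43 members, by library (rows) and role (symbols), with black bars for the medians. Medians lie 74.0 and 66.5 bp upstream in NSC1 and NSC2 and 127 and 119 bp upstream in ESC1 and ESC2.

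Where 2 libraries both had a peak at a member, the peaks overlapped about as often as at all coding genes. NSC1 and NSC2 peaks overlapped at 28 of 30 such members (93.3%, against 96.2% of all genes called in both), the exceptions being PSMB9 and PSMD7, with a median of 21.5 bp between summits (38.0 bp for all genes). Between NSC1 and ESC2, 19 of 21 overlapped (90.5%, against 93.6%; median 44.0 bp, against 45 bp), with PSMB5 and PSMB9 as exceptions. Between NSC2 and ESC2, 18 of 19 did (94.7%, against 93.4%; median 48.0 bp, against 46.0 bp), with PSMB5 as the exception. ESC1 peaks overlapped those of NSC1 at 8 of 8 members (95.2% of all genes), with a median of 54.0 bp (46.0 bp for all genes), and those of ESC2 at 8 of 8 (98.1%), with 82.0 bp (36.0 bp).

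The gene-end rule missed sites at some members with a listed start far inside the RefSeq gene span. PSMA1 (chr11:14504876-14643662) was called by a weak peak in NSC1 near PDE3B (1.99), but at its listed start, 123276 bp inside the span, NSC1 and NSC2 had peaks of 14.3 and 13.6, and ESC2 one of 10.6. The summits there lay 82, 41 and 21 bp upstream. At PSMA6, which the rule left without a peak, NSC1, NSC2 and ESC2 had peaks of 6.38, 5.96 and 6.31 at the listed start, 13759 bp inside the span. PSMG4 had one in NSC2 (4.58) at its listed start, 4543 bp inside the span. PSMF1 has a listed start at its gene end and another inside the gene. Its NSC1 peak (1.89) had its summit 512 bp from the inner start. By listed starts, 37 and 32 of 43 members were called in NSC1 and NSC2, against 7 and 22 in ESC1 and ESC2; among these 43, PSMA8, PSMB4, PSMB11 and PSMC2 had none. For all coding genes with a listed start, the shares were 47.4% and 42.3% in the NSC libraries and 7.44% and 25.3% in the ESC libraries. PSMB4 (chr1:151399573-151401937), a constitutive beta subunit, had no peak within 27086 bp in NSC1, 52104 bp in NSC2, 117315 bp in ESC1 or 52007 bp in ESC2.

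The 54 member promoters had a median GC content of 62.0%, against 62.7% for 21156 promoters of coding genes. In the middle tercile of GC content (57.0% to 67.7%), 21 and 17 of 24 members were called in NSC1 and NSC2, where 55.4% and 49.9% of all genes of that tercile were, and 6 and 13 in ESC1 and ESC2, against 12.2% and 36.7%. In the low tercile, 5 and 3 of 8 members were called in NSC1 and NSC2, where 25.6% and 21.4% of all genes were, and 0 and 3 in ESC1 and ESC2, against 5.26% and 17.4%. In the high one, 9 and 9 of 11 were called in NSC1 and NSC2, where 52.7% and 47.4% of all genes were, and 1 and 4 in ESC1 and ESC2, against 4.46% and 20.0%. Among the motifs, CCGGAAG was in 33.3% of member promoters, against 12.9% of all, and in 12 of 22 regulatory against 2 of 20 core promoters. AAGATGG was in 18.5%, against 5.96%, and TGACNNNGC in 27.8%, against 13.8%. GGGCGG was in 72.2%, against 56.6%, and CCAAT in 42.6%, against 34.4%. GCATGCG was in 5.56%, against 4.54%, and TATAAA in 9.26%, against 9.51%. Promoters and not genes are counted here, and some genes have several. The overlapping promoters of PSMC3IP both hold CCGGAAG and CCAAT, and those of PSME3IP1 both hold CCAAT. Promoters of members called in both NSC libraries held CCAAT in 19 of 33 cases and TGACNNNGC in 12 of 33, and those of the other members in 4 of 21 and 3 of 21. CCGGAAG was in 12 of 33 and 6 of 21, GGGCGG in 25 of 33 and 14 of 21, and AAGATGG in 6 of 33 and 4 of 21. GCATGCG was in 1 of 33 and 2 of 21, and TATAAA in 2 of 33 and 3 of 21. This split follows the gene-end rule, so PSMA1 and PSMA6 are among the other members despite NSC1 and NSC2 peaks at their listed starts. It was not made for all coding genes. These shares are descriptions of short windows and were not tested.

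Other genes of the ubiquitin and proteasome pathway, 29 autosomal genes without a PSM symbol, gave 25 and 23 called in NSC1 and NSC2 (86.2% and 79.3%, where all genes had 43.5% and 38.7%), against 8 and 16 in ESC1 and ESC2 (27.6% and 55.2%, where all genes had 6.8% and 23.2%). In all 4 libraries, 8 of the 29 were called (27.6%, where all genes had 6.01%). Among these were ADRM1, a ubiquitin receptor of the regulatory particle, and the proteasome deubiquitinases UCHL5 and USP14. NFE2L1, the transcription factor that raises proteasome gene expression when proteolysis is limiting, and NGLY1, which activates NFE2L1, were also called. The others were the ubiquitin gene RPS27A, the ubiquitin-activating enzyme gene UBA6 and UFD1. RPS27A also belongs to the ribosomal set that follows. Ribosomal protein genes, another set for a ubiquitous machine, were called at 71 and 68 of 80 in NSC1 and NSC2, against 11 and 40 in ESC1 and ESC2, and nuclear genes of the respiratory chain at 63 and 55 of 89, against 12 and 32. In percent, the ribosomal genes were called at 88.8 and 85 in NSC1 and NSC2, against 13.8 and 50 in ESC1 and ESC2, and the respiratory genes at 70.8 and 61.8, against 13.5 and 36.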

How the data were processed

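BAF45D occupancy was measured by CUT&Tag in 2 NSC and 2 ESC libraries. The submitters' processing notes name the build hg38 and the tools Trimmomatic, FastQC, MACS2 and BWA (version 0.7.12). MACS2 2.1.0.20150420 called the peaks of each library at a q threshold of 0.05, without a control library, per the file headers. The authors deposited for each peak the pileup as a signal, the −log10 p and −log10 q, and the fold enrichment as a ratio, all within 1 library. No untargeted antibody library was used here. Entries with the same start and end were joined, keeping the strongest −log10 q. Genes and promoter sequences came from RefSeq GRCh38.p14, with promoters for 43 of the 49 members. A gene was called with a peak overlapping by at least 1 bp the window within 1 kb of either end, on chromosomes 1 to 22. Counts per library were compared by a two-sided exact permutation test (scipy 1.17.1). Other counts were not tested, and shares of all coding genes were computed by the same rules. The alternatives tried are given in the closing section. The placement of peaks was tested on simulated data. Python 3.11.15 and pandas 2.3.3 were used. Members with a peak in all 4 libraries, the 6 with the highest mean percentile in the NSC lists and those with no peak were described in full; members, lists and motifs were chosen with earlier results of these data known. The promoters of PSMA2 and PSMB5 were added after their values were seen.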

Additional observations from a re-analysis of the deposited data

How the results depend on the processing

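The settings varied were a −log10 q of at least 5, lists of equal length, windows of 500 bp and 2.5 kb, the summit in the window, the 5′ start alone, members without PSMC3IP and PSME3IP1, the gene with 10 kb, and each library left out. The NSC minus ESC difference of 20.5 genes stayed positive, from 15.0 to 21.5, except at equal list length, where it was -4.5; leaving out a library gave 14 to 27. Members called only in NSC numbered 11, and 0 at equal list length; leaving out a library gave 11 to 23. Members called only in ESC numbered 0, and 2 at equal list length: PSMA5, by different sites in ESC1 and ESC2, and PSMB3, at the site near TRN-GTT2-5. Leaving out a library gave 0 to 1, the 1 being PSMB8 without NSC1. Members in all 4 libraries numbered 7, against 1 at −log10 q of at least 5 (2.04%, against 3.06% of all genes). They numbered 2 at equal list length, 4 with windows of 500 bp and 11 with the gene and 10 kb. Leaving out a library gave 7 to 19. With windows of 500 bp the sites near TBP, TRN-GTT2-5 and RNF31 no longer counted in all 4 libraries. The cause of the other changes was not tested. No paired analysis was possible because no label ties an NSC library to an ESC library beyond a shared number, and the result is 1 count per library with no fitted model. With no read counts outside peaks, depth sets no lower limit for a missing peak.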

Other observations

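PSMD10, the gene of a regulatory particle assembly chaperone, is on chromosome X and was outside the autosomal set. It had gene-end peaks in all 4 libraries, with −log10 q of 10.0 and 8.67 in NSC1 and NSC2, against 4.81 and 21.6 in ESC1 and ESC2. None of 48 autosomal PSM pseudogenes had a peak within 1 kb of an end in any of the 4 libraries.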
